A study of Saccharomyces cerevisiae with 6 samples.

Results

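The genes described here are the 33 nuclear genes for subunits of respiratory complexes II to V and for cytochrome c in Saccharomyces cerevisiae. They were taken by symbol from a table of 6679 open reading frames (ORFs), and all 33 were found. Complex II (succinate dehydrogenase) contributed 4 genes, complex III (the cytochrome bc1 complex) 9, cytochrome c 1, complex IV (cytochrome c oxidase) 8 and complex V (ATP synthase) 11. All 33 passed the filter on low values, which asked for a mean of 5 or more.

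The respiratory chain of the inner mitochondrial membrane passes electrons from succinate and other donors through ubiquinone, complex III and cytochrome c to complex IV, where oxygen is reduced. The proton gradient made on the way drives ATP synthase, whose catalytic head turns against a fixed peripheral stalk, the stator. Budding yeast has no proton-pumping complex I and uses NADH dehydrogenases without a pump in its place, and it sporulates on acetate, a carbon source that has to be respired.

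The study sequenced poly(A)-selected RNA from strain SK1, labelled wild type in all 6 libraries, during meiosis with or without high levels of spliced HAC1 mRNA, which encodes the transcription factor of the unfolded protein response, driven from outside the normal gene control. Cells were moved to sporulation medium at 0 h, and at 5 h either ethanol, the vehicle, or the inducer named bEST was added. Harvests followed 1, 1.5 and 2 h later, at 6, 6.5 and 7 h. Each treatment has 1 library per time, 3 in all. Separate cultures are not named in the labels, so p-values cover the spread between these 6 libraries, which may be technical. In the fit of treatment this spread is the variation of the difference between inducer and vehicle over the 3 times. It mixes noise with any change of the response over time and is not a spread between replicates. Values below are given in the order 6, 6.5 and 7 h. The construct that carries the driven HAC1 is not named in the labels. Cells given inducer without driven HAC1 were not analysed here, so effects of the inducer and of HAC1 cannot be told apart.

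HAC1 itself stood at 127, 128 and 98.4 in the vehicle libraries and at 28926, 48866 and 53257 in the inducer libraries (log2 change 8.48 ± 0.23 SE, limma adjusted p = 7.84e-06), which fits the labels of all 6 libraries. The values are of the RPKM type, that is, reads scaled by length and by library total. The reads recovered from them came to 6.0 to 21.7 megareads per library, with the vehicle library at 6.5 h the shallowest, and Pearson correlations between libraries were 0.925 to 0.987. The 12 markers of middle meiosis and spore formation summed to 127690 to 204911 in vehicle and 144425 to 176644 in inducer. Between treatments limma called none of them at the adjusted threshold of 0.05. None had an unadjusted p under 0.05 either, against 2128 of all 6025 tested ORFs. The median log2 difference of these 12 markers between inducer and vehicle was 0.03, 0.02 and -0.38 at 6, 6.5 and 7 h. At 7 h 11 of the 12 lay below 0 (53.7% of all tested ORFs). The 10 early meiosis markers summed to 13485 to 17155 and 7998 to 15247, with 5 lower (RED1, HOP1, SPO11, SPO13 and DMC1). Their median log2 difference was -0.25, -0.73 and -0.93 at 6, 6.5 and 7 h. At each time 9 of the 10 lay below 0 (59.3, 59.2 and 53.7% of all tested ORFs). The 14 haploid and mating markers summed to 3511 to 4013 and 4099 to 5020, with MFA1 and BAR1 higher and FUS3 lower. The 10 markers of mitotic cells in G1 and S phase summed to 319 to 374 and 348 to 598, with DSE1 higher and PCL1 lower. With all times, limma called 10.0% of all tested ORFs higher and 8.35% lower. Of the early, haploid and mitotic markers 0 were called without the 6.5 h pair or the 7 h pair. Among all tested ORFs these fits called 0.365 and 0.149% lower and 3.25 and 1.26% higher. The part of these shifts in the values below was not tested. In bulk RNA, fewer cells of a type and less RNA per cell cannot be told apart.

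Most transcripts of complexes II and III and that of cytochrome c were called lower with inducer, and no transcript of complex IV passed the test. In ATP synthase 10 of 11 changes lay below 0, with 5 genes called lower and 1 higher. Comparing inducer with vehicle at matched times, limma called 15 of the 33 genes lower and 1 higher at an adjusted p under 0.05. Among all 6025 tested ORFs 8.35% were called lower and 10.0% higher. The 15 were 3 of 4 genes of complex II, 6 of 9 of complex III, CYC1 for cytochrome c, 0 of 8 of complex IV and 5 of 11 of complex V. The gene called higher was ATP7, a stator subunit of ATP synthase. The median log2 change over the 33 genes was -0.54, against -0.08 over all tested ORFs. Over the 10 early meiosis markers it was -0.65. Of the 33 changes 32 lay below 0, against 3580 of the 6025 over all tested ORFs. Without the 6.5 h pair or without the 7 h pair, limma called 0 of the 33 genes in either direction, with medians of -0.46 in both cases. Calls were then also few among all tested ORFs, at 0.365 and 0.149% lower and 3.25 and 1.26% higher. In these fits 11 and 18 of the 33 genes had an unadjusted p under 0.05. The share over all ORFs was not counted for these fits, so an excess among the 33 genes cannot be judged. With all times the counts were 24 of the 33 genes and 2128 of the 6025 tested ORFs. Without the 6 h pair 20 were called lower (8.88% of all tested ORFs). Without time in the model 5 were called lower and 1 higher (2.41 and 8.03% of all tested ORFs). The 5 were SDH2, QCR2, CYT1, CYC1 and ATP2, so the calls of SDH3, SDH4, QCR6, QCR7, QCR10, RIP1, ATP1, ATP5, ATP14 and ATP16 depended on matching libraries by time.

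**Figure D1:**
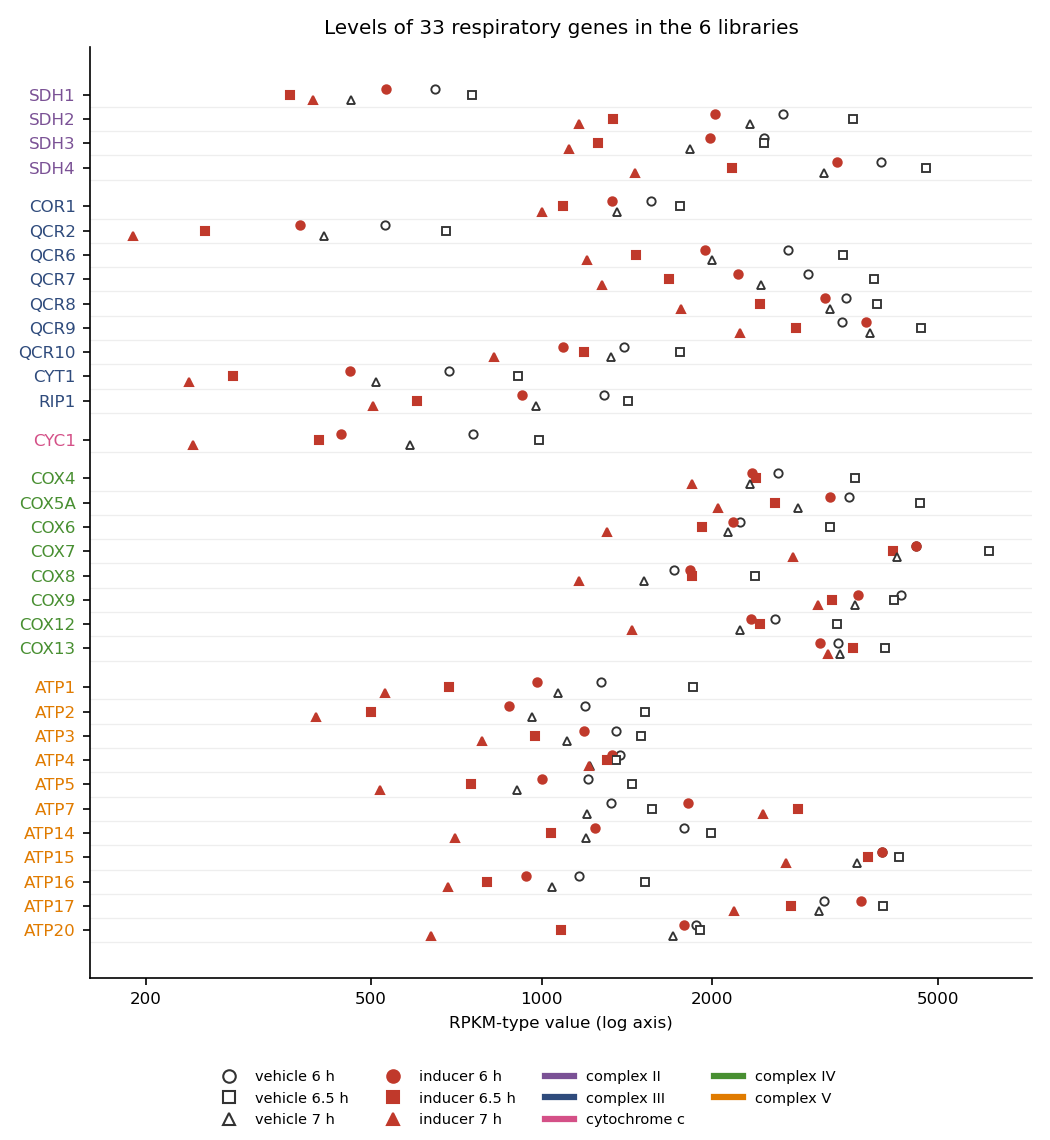
RPKM-type values (log axis) of the 33 genes, 1 row per gene, with open symbols for the 3 vehicle libraries, filled red symbols for the 3 inducer libraries and the symbol shape giving the time. In 13 rows all red symbols lie left of all open symbols, in the ATP7 row they lie to the right, and in the 8 rows of complex IV the treatments overlap.

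The groups did not overlap, with every inducer library below every vehicle library, for 13 of the 33 genes (14.1% of all tested ORFs). These were SDH2, CYC1, ATP1, ATP2, ATP16 and every gene of complex III except QCR9. The opposite arrangement was found for ATP7 alone among the 33 (17.3% of all tested ORFs). Together the 33 genes made up 2.0, 2.34 and 1.7% of all deposited values in the vehicle libraries at 6, 6.5 and 7 h, and 1.81, 1.49 and 1.15% in the inducer libraries.

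Complex II oxidises succinate to fumarate and hands the electrons to ubiquinone, so it belongs to the tricarboxylic acid cycle as well as to the chain. SDH2, its iron-sulfur subunit, was measured at 2669, 3551 and 2334 in vehicle and at 2025, 1334 and 1165 in inducer (log2 change -0.94 ± 0.21 SE, limma adjusted p = 0.023). All inducer values lay below all vehicle values, with the widest gap at 6.5 h. SDH4, a membrane anchor, stood at 3980, 4763 and 3152 in vehicle and 3328, 2172 and 1462 in inducer (-0.83 ± 0.21 SE, limma adjusted p = 0.0324). The other anchor, SDH3, stood at 2470, 2468 and 1829 and at 1986, 1259 and 1117 (-0.67 ± 0.17 SE, limma adjusted p = 0.0361). For both anchors only the 6 h inducer value reached into the vehicle range. SDH1, the flavoprotein that binds succinate, was the lowest of the complex at 648, 753 and 460 in vehicle and 532, 360 and 395 in inducer, and its change of -0.52 ± 0.19 SE did not pass (limma adjusted p = 0.0981). Unlike the other members of the complex, SDH1 was lowest with inducer at 6.5 h, and by 7 h its difference was -0.22, against -0.71 to -1.11 for the other 3 genes. Leaving out the 6.5 or the 7 h pair ended all 3 calls of the complex, with medians of -0.60 and -0.68 against -0.75 with all times.

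Complex III passes electrons from ubiquinol to cytochrome c, and its redox centres sit in the mitochondrially encoded cytochrome b and in the nuclear proteins CYT1 and RIP1. CYT1, the cytochrome c1 protein, had the most negative change of the 33 genes, just ahead of CYC1 and ATP2, with 687, 910 and 510 in vehicle and 458, 285 and 238 in inducer (log2 change -1.12 ± 0.21 SE, a 2.17-fold lower level, limma adjusted p = 0.0134). RIP1, the Rieske iron-sulfur protein, stood at 1288, 1421 and 979 in vehicle and at 925, 602 and 504 in inducer (-0.89 ± 0.18 SE, limma adjusted p = 0.0168). The inducer libraries were below every vehicle library for both redox proteins, and the difference was widest at 6.5 h, at -1.67 for CYT1 and -1.24 for RIP1.

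The core proteins of complex III, which carry no redox centre, differed between themselves. QCR2 had the lowest level of all 33 genes, with 530, 678 and 412 in vehicle and 375, 254 and 190 in inducer (-1.01 ± 0.19 SE, limma adjusted p = 0.0136). COR1 stood at 1557, 1753 and 1357 and at 1329, 1092 and 1003, and although its groups did not overlap, its change of -0.45 ± 0.15 SE did not pass (limma adjusted p = 0.0813). The difference between these 2 changes was not tested.

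Among the small subunits, which surround the catalytic core, 3 of 5 were called lower. QCR7 was measured at 2955, 3859 and 2444 in vehicle and 2218, 1680 and 1280 in inducer (-0.85 ± 0.18 SE, limma adjusted p = 0.0217). QCR6 was measured at 2728, 3411 and 2001 and at 1941, 1467 and 1201 (-0.81 ± 0.18 SE, limma adjusted p = 0.0222). These genes moved nearly in parallel, with the highest value of each in vehicle at 6.5 h and the lowest in inducer at 7 h. QCR10 stood at 1400, 1757 and 1328 and at 1090, 1188 and 825 (-0.54 ± 0.14 SE, limma adjusted p = 0.0421), a call that was lost with median-of-ratios scaling (adjusted p = 0.0628), with HAC1 left out of the library totals (0.0511), without the variance trend (0.0556), with hours as a linear term (0.0551) and without time in the model (0.111). QCR8 had values of 3449, 3914 and 3224 and of 3162, 2432 and 1762, and its change of -0.56 ± 0.18 SE did not pass (limma adjusted p = 0.0722). QCR9 was the only gene of the complex whose groups overlapped, since its inducer value at 6 h, 3746, lay above the vehicle value of 3392 (-0.45 ± 0.21 SE, limma adjusted p = 0.171). Without the 6.5 or the 7 h pair no gene of complex III passed, with medians of -0.61 and -0.81 against -0.81 with all times.

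CYC1 encodes the main form of cytochrome c, the soluble carrier between complexes III and IV. It stood at 758, 988 and 586 in vehicle and at 442, 405 and 242 in inducer (log2 change -1.11 ± 0.16 SE, 2.16-fold lower), with the smallest adjusted p of the 33 genes (limma adjusted p = 0.00541). It was also the gene with the largest difference at the earliest time, -0.78 at 6 h, followed by -1.28 and -1.27. CYC7, the minor isoform, was at 564, 732 and 666 in vehicle and at 522, 578 and 637 in inducer, and its change of -0.17 ± 0.14 SE did not pass (limma adjusted p = 0.407). With inducer CYC7 was therefore above CYC1 in all 3 libraries, whereas in vehicle CYC1 was above CYC7 at 6 and 6.5 h and below it at 7 h. The change of CYC1 was -1.02 without the 6.5 h pair (limma adjusted p = 0.0543) and -1.03 without the 7 h pair (limma adjusted p = 0.065).

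**Figure D2:**
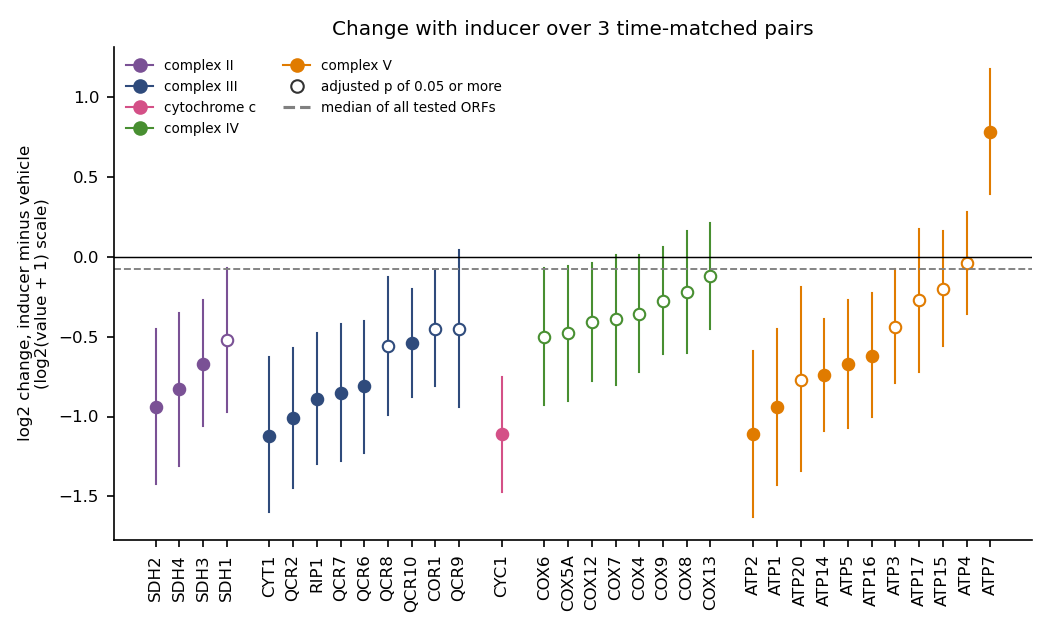
Log2 change of each gene between inducer and vehicle on the log2(value + 1) scale, with 95% intervals from the limma fit over 3 time-matched pairs; filled points had an adjusted p under 0.05 and the dashed line is the median of all tested ORFs, -0.08. Points reach from -1.12 for CYT1 to 0.78 for ATP7, and all 8 points of complex IV are open and lie between -0.50 and -0.12.

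In complex IV, which reduces oxygen, limma called 0 of the 8 nuclear subunits in either direction. An unadjusted p under 0.05 was found for 3 of them (COX5A, COX6 and COX12), against 2128 of the 6025 tested ORFs. All 8 changes were nevertheless below 0, as were 3580 of the 6025 over all tested ORFs. They ran from -0.50 ± 0.18 SE for COX6 to -0.12 ± 0.14 SE for COX13, with a median of -0.37. COX6 stood at 2237, 3229 and 2134 in vehicle and 2180, 1916 and 1305 in inducer (limma adjusted p = 0.0991), equal within a few percent at 6 h and apart at the later times. COX5A, the aerobic form of the subunit whose hypoxic form is COX5B, was at 3483, 4664 and 2834 and at 3230, 2584 and 2047 (-0.48 ± 0.18 SE, limma adjusted p = 0.105). COX5B itself was at 853, 694 and 732 and at 788, 682 and 735, nearly level over all 6 libraries (-0.04 ± 0.13 SE, limma adjusted p = 0.839).

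The other subunits of complex IV had changes from -0.41 to -0.12. COX13 was at 3340, 4039 and 3359 in vehicle and at 3107, 3545 and 3206 in inducer (limma adjusted p = 0.584; 95% interval of the log2 change -0.45 to 0.21). COX7 had the highest mean vehicle level of the 33 genes, with 4588, 6169 and 4241 in vehicle and 4575, 4168 and 2774 in inducer (-0.39 ± 0.17 SE, limma adjusted p = 0.155). COX8, the lowest of the complex, was at 1715, 2383 and 1519 and at 1830, 1842 and 1164 (-0.22 ± 0.16 SE, limma adjusted p = 0.365). Both treatments thus overlapped for COX13, COX7 and COX8, and the same held for COX4, COX9 and COX12, whose changes were -0.36, -0.28 and -0.41. A call that is missing does not show that complex IV was unchanged, since the interval of COX6 reached -0.93 and that of COX5A -0.90. Without the 6 h pair 2 of the 8 were called lower and the median was -0.50.

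ATP synthase was the group with changes in both directions. Its F1 head holds the catalytic subunits, and 3 of the 5 genes measured for it (ATP1, ATP2, ATP3, ATP16 and ATP15, for alpha, beta, gamma, delta and epsilon) were called lower. ATP2, the catalytic beta subunit, was measured at 1192, 1525 and 962 in vehicle and at 875, 499 and 399 in inducer (log2 change -1.11 ± 0.22 SE, 2.16-fold lower, limma adjusted p = 0.0174). ATP1 stood at 1272, 1851 and 1070 and at 982, 686 and 530 (-0.94 ± 0.21 SE, limma adjusted p = 0.0235). Neither gene had an inducer value inside the vehicle range, and the ratio of ATP2 to ATP1 was 0.938, 0.824 and 0.899 in vehicle and 0.891, 0.727 and 0.754 in inducer. ATP16 was at 1164, 1524 and 1043 and at 938, 800 and 683 (-0.62 ± 0.16 SE, limma adjusted p = 0.0403). Its call was lost with median-of-ratios scaling (limma adjusted p = 0.0523) and without the variance trend (limma adjusted p = 0.0588). ATP3, whose product turns inside the head, was at 1354, 1495 and 1110 and at 1188, 974 and 784 (-0.44 ± 0.15 SE, limma adjusted p = 0.0849). ATP15, the shortest of these genes, changed least, with 3991, 4270 and 3610 in vehicle and 3987, 3766 and 2700 in inducer (-0.20 ± 0.15 SE, limma adjusted p = 0.39).

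Among the 6 genes of the stator and the membrane sector, 2 were called lower and 1 higher. ATP14 (subunit h) was at 1781, 1987 and 1196 in vehicle and 1240, 1038 and 702 in inducer (log2 change -0.74 ± 0.15 SE, limma adjusted p = 0.0175). ATP5, the oligomycin sensitivity protein that joins the stator to the head, was at 1206, 1446 and 903 and at 1003, 750 and 518 (-0.67 ± 0.17 SE, limma adjusted p = 0.0362). For both, the inducer value at 6 h lay above the vehicle value at 7 h, so the groups overlapped. ATP17 (subunit f) was at 3157, 4011 and 3091 and at 3669, 2755 and 2188 (-0.27 ± 0.19 SE, limma adjusted p = 0.342), higher with inducer at 6 h and lower afterwards. ATP4 (subunit b of the stator) hardly differed, with 1377, 1355 and 1218 in vehicle and 1330, 1306 and 1213 in inducer. Its change was -0.04 ± 0.14 SE with a 95% interval of -0.36 to 0.28 (limma adjusted p = 0.871), and it turned to 0.02 with median-of-ratios scaling. Without the 6.5 or the 7 h pair no gene of ATP synthase passed, with medians of -0.46 and -0.44 against -0.62 with all times.

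ATP20 (subunit g, which takes part in pairing ATP synthase complexes) had the change that grew most with time. It was at 1872, 1903 and 1708 in vehicle and at 1786, 1082 and 639 in inducer, so the treatments were close at 6 h and wide apart at 7 h. The log2 difference was -0.07, -0.81 and -1.42 at 6, 6.5 and 7 h. The change over all times was -0.77 ± 0.24 SE (limma adjusted p = 0.0685), and the change of the difference per hour was -1.35 ± 0.28 SE (limma adjusted p = 0.167, unadjusted p = 0.00109), so neither passed over all tested ORFs.

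ATP7 (subunit d of the stator) was the gene that went the other way. It was measured at 1328, 1568 and 1202 in vehicle and at 1813, 2838 and 2464 in inducer (log2 change 0.78 ± 0.17 SE, 1.72-fold higher, 95% interval 0.39 to 1.17, limma adjusted p = 0.02). The lowest inducer value was above the highest vehicle value. Its difference was 0.45, 0.86 and 1.03 at 6, 6.5 and 7 h, and by mean level it moved from place 23 of 33 in vehicle to place 9 in inducer. Measured within each library, ATP7 stood near the median of the other 10 ATP synthase genes in vehicle, at -0.04, -0.10 and 0.06 on the log2 scale, and above it in inducer, at 0.58, 1.5 and 1.83. The ratio of ATP7 to ATP4, both for stator subunits, was 0.965, 1.16 and 0.987 in vehicle and 1.36, 2.17 and 2.03 in inducer, and that of ATP7 to ATP2 was 1.11, 1.03 and 1.25 against 2.07, 5.69 and 6.17. These ratios do not depend on how the libraries are scaled.

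The call of ATP7 did not hold with fewer times, although its sign did. Its change was 0.74 without the 6.5 h pair (limma adjusted p = 0.189), 0.65 without the 7 h pair (limma adjusted p = 0.094) and 0.95 without the 6 h pair (limma adjusted p = 0.00855). In the reference gene table the neighbours of ATP7 are HCS1, which encodes a DNA helicase, and PUT3, which encodes the activator of proline use. HCS1 was at 35.7, 35.3 and 33 in vehicle and at 41.8, 51.4 and 55.0 in inducer (0.49 ± 0.16 SE, limma adjusted p = 0.0695). PUT3 was at 150, 143 and 128 and at 129, 94.8 and 100 (-0.38 ± 0.13 SE, limma adjusted p = 0.0775). HCS1 thus lay above and PUT3 below its vehicle mean in all inducer libraries, neither change passed, and 0 of the 33 genes overlap another gene of the reference table.

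**Figure D3:**
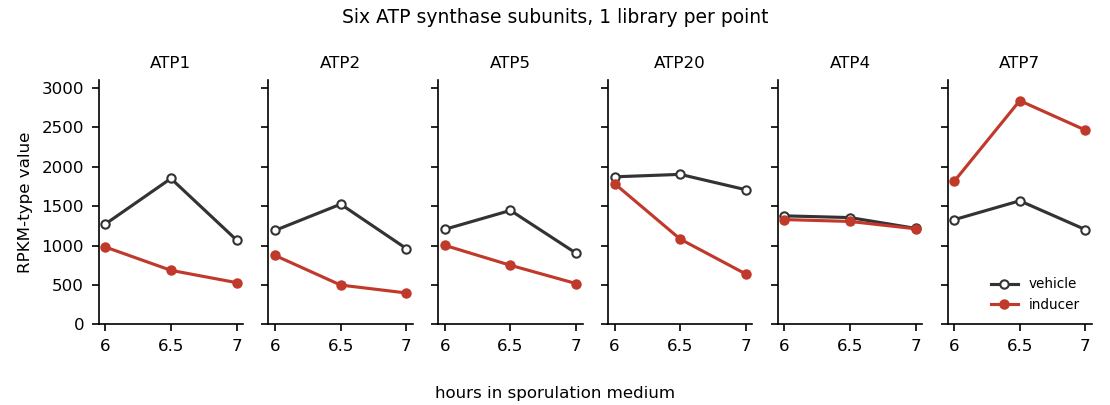
RPKM-type values of 6 ATP synthase genes against hours in sporulation medium, with open points for vehicle and filled red points for inducer, 1 library per point. ATP1, ATP2 and ATP5 run lower with inducer at every time, ATP20 separates after 6 h, ATP4 stays within 1213 to 1377 in all 6 libraries, and ATP7 runs higher with inducer at every time.

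The differences were small 1 h after the addition and larger later. Over the 33 genes, the median log2 difference was -0.25 at 6 h, -0.81 at 6.5 h and -0.71 at 7 h, against -0.06, -0.11 and -0.04 over all tested ORFs. The number of genes below 0 was 29, 32 and 32 (59.3, 59.2 and 53.7% of all tested ORFs). Medians at the 3 times were -0.30, -1.10 and -0.86 for complex II, -0.41, -1.20 and -0.87 for complex III, -0.11, -0.51 and -0.43 for complex IV and -0.19, -0.81 and -0.61 for complex V. Complex IV was thus nearest to 0 at every time, and CYC1 was below the median of every complex at every time. At 6 h the genes above 0 were ATP7, ATP17, QCR9 and COX8, of which only ATP7 was above 0 at the later times. Each of these differences rests on 1 library per treatment and carries no test.

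In vehicle 30 of the 33 genes were highest at 6.5 h (90.9%, against 29.0% of all tested ORFs), with a median step of 0.33 in log2 from 6 to 6.5 h and of -0.57 from 6.5 to 7 h. The vehicle library at 6.5 h is also the shallowest, and the part of depth in this peak was not tested; the members' own recovered reads were 221 to 10650 over the 6 libraries. With inducer 26 of the 33 were lower at each later time (78.8%, against 33%), with medians of -0.32 and -0.34 for the steps. The exceptions with inducer were SDH1, QCR10, ATP7 and the 4 genes COX4, COX8, COX12 and COX13 of complex IV. By 7 h, 31 of the 33 genes were at their lowest in vehicle and 30 with inducer (57.1 and 40.5% of all tested ORFs).

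**Figure D4:**
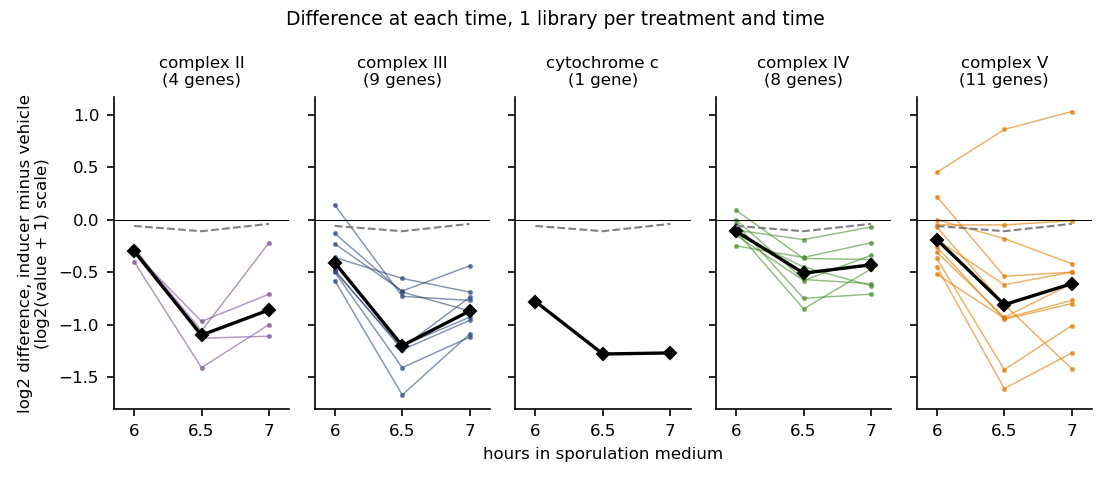
Log2 difference between the inducer and the vehicle library at 6, 6.5 and 7 h on the log2(value + 1) scale, 1 panel per complex, with thin lines for genes, black diamonds for the median of the complex and a dashed line for the median of all tested ORFs. The medians of complexes II, III and V lie at -0.81 to -1.20 at 6.5 h and that of complex IV at -0.51. In the last panel the only line above 0 at every time is ATP7.

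No change over time passed for any of the 33 genes when both treatments were fitted together. Limma called 0 of them higher and 0 lower with hours as a linear term, with 13 at an unadjusted p under 0.05, while 0.249% of all tested ORFs were called higher and 0.415% lower (1335 of 6025 at an unadjusted p under 0.05). The median slope of the 33 genes was -0.46 per hour against -0.15 over all tested ORFs, and -0.30 against 0.01 with median-of-ratios scaling, so the distance of the 33 genes from all ORFs was -0.31 under both. It depended on the 7 h libraries, since without that pair the median slope was -0.07 with -0.19 over all ORFs. Without the 6 h pair it was -0.93. With a single library left out, it was -0.79 without vehicle at 6 h, -0.35 without inducer at 6 h and -0.34 without inducer at 7 h, and the distance from all ORFs was -0.66, -0.19 and -0.16. The 13 genes at an unadjusted p under 0.05 became 25, 1 and 1 in these fits, 7 without vehicle at 7 h, 1 without the 7 h pair and 5 with median-of-ratios scaling. Shares over all ORFs were not counted for these alternative fits. The steepest slope of the 33 genes was that of ATP20 at -0.81 ± 0.28 SE per hour (limma adjusted p = 0.156), and ATP7 and COX13 were the genes with a slope above 0.

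The interaction of treatment with hours asks whether the difference between treatments grew. Limma called 0 of the 33 genes and 0 of all 6025 tested ORFs in either direction, which is 0% of the background, while 4 of the 33 (ATP20, QCR9, QCR8 and SDH4) and 714 of all ORFs had an unadjusted p under 0.05. The median interaction was -0.48 per hour over the 33 genes and 0.07 over all tested ORFs. The interaction was below 0 for 28 of the 33 genes and for 2645 of the 6025 tested ORFs.

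Levels within a library show the shift between complexes without a comparison of libraries. On the scale per length, the log2 of the median level of complex II relative to that of complex IV was -0.20, -0.36 and -0.32 in vehicle and -0.43, -0.95 and -0.77 in inducer. CYC1 relative to complex IV was at -1.96, -1.94 and -2.13 in vehicle and at -2.61, -2.63 and -3.00 in inducer. The relative level of complex III was -0.92, -1.11 and -0.92 in vehicle and -1.03, -1.07 and -0.95 in inducer, and that of complex V was -1.12, -1.28 and -1.10 and then -1.12, -1.27 and -1.47. Complex II and CYC1 were thus lower against complex IV in every inducer library than in any vehicle library, whereas complexes III and V overlapped by this measure. It follows the gene of middle level in each library, for complex III COR1 or QCR10 and for complex V ATP3, ATP7 or ATP14. The changes of COR1 and QCR10, -0.45 and -0.54, were nearer 0 than the median change of complex III, -0.81, against -0.37 for complex IV. The overlap therefore does not show that complex III kept its level against complex IV. Within complex III the highest level was 6.51, 6.90 and 9.24 times the lowest in vehicle and 9.98, 11.1 and 11.8 times in inducer.

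By mean vehicle level the order began with COX7, COX9, SDH4, QCR9 and ATP15 and ended with CYC1, CYT1, SDH1 and QCR2. The authors' values behave as if reads were divided by the coding length less 60 bp, which lifts the shortest genes, whose coding lengths begin at 180 bp. Divided by the full coding length, SDH4 came first at 3530 and COX7 next at 3360, and QCR2 stayed last at 511. Across the 33 genes, the change with inducer had a rank correlation of -0.41 with coding length and of 0.45 with vehicle level, against -0.07 and -0.11 across the 5711 tested ORFs with a coding length and -0.11 and -0.08 across the 914 of them within the members' range of length and vehicle level. Longer and less abundant members thus tended to more negative changes. Genes are not independent replicates, the genes of complex IV are short and abundant, and no test was made.

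The remaining parts of the chain were compared through lists of related genes. The 7 mitochondrially encoded subunits lack poly(A) tails in yeast, so poly(A) selection leaves most of them out. ATP6, at 0.429 to 2.88, stayed below the filter. Of the other 6, limma called 0, and 0 had an unadjusted p under 0.05 (2128 of the 6025 tested ORFs). Their median difference was 0.66 at 6 h, 1.15 at 6.5 h and -0.60 at 7 h, so their direction turned between times. COX1 was at 91.7, 65.8 and 142 in vehicle and 158, 139 and 95.0 in inducer (log2 change 0.43 ± 0.29 SE, limma adjusted p = 0.329). COX3 was at 97.6, 61.6 and 183 and at 186, 178 and 93.5. COX2 was at 43.1, 26.3 and 66.8 and at 78.0, 62.5 and 37.8. COX1, COX2, COX3 and ATP8 each had their lowest vehicle value at 6.5 h, the time at which most of the nuclear genes were highest. ATP8 was at 398, 282 and 494 and at 486, 458 and 320. COB, for cytochrome b, was at 35.5, 33.8 and 54.1 and at 52.3, 40.7 and 44.2. OLI1, for the ring subunit of ATP synthase, was at 9.02, 0 and 7.27 and at 10.8, 5.51 and 13.8.

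Of 13 isoforms and accessory subunits, 2 were called higher and 1 lower (10.0 and 8.35% of all tested ORFs). STF2, which works with the inhibitor of ATP synthase, was at 1125, 1324 and 1415 in vehicle and at 3937, 10251 and 10895 in inducer (log2 change 2.57 ± 0.24 SE, 5.93-fold higher, limma adjusted p = 0.00137). SHH3, a relative of SDH3, was at 218, 297 and 331 and at 336, 892 and 1430 (1.44 ± 0.26 SE, limma adjusted p = 0.0129). ATP19, a small subunit of ATP synthase, went the way of most members, with 1670, 2037 and 1641 and then 1408, 1236 and 844 (-0.64 ± 0.18 SE, limma adjusted p = 0.0433). STF2 stayed called without any of the 3 pairs, at 2.37 to 2.95. The call of SHH3 was lost without the 6.5 h pair (limma adjusted p = 0.0753) and without the 7 h pair (limma adjusted p = 0.0914), and so was that of ATP19, which was also lost with median-of-ratios scaling (adjusted p = 0.063).

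Among 6 other dehydrogenases that feed the chain, CYB2, which passes electrons from lactate to cytochrome c, was called lower (8.35% of all tested ORFs). It was at 165, 252 and 189 in vehicle and at 88.6, 69.5 and 66.4 in inducer (log2 change -1.41 ± 0.18 SE, limma adjusted p = 0.00449), with -1.37 without the 7 h pair (limma adjusted p = 0.0653). NDI1, the internal NADH dehydrogenase, was at 451, 559 and 376 and at 355, 311 and 294 (-0.51 ± 0.15 SE, limma adjusted p = 0.056). GUT2, the mitochondrial glycerol phosphate dehydrogenase, was at 867, 1012 and 946 and at 671, 655 and 838 (-0.39 ± 0.15 SE, limma adjusted p = 0.109). All inducer values of these genes lay below all vehicle values, but only the change of CYB2 passed.

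The tricarboxylic acid cycle, which supplies succinate and NADH, had a median of -0.79. Limma called 7 of its 11 genes lower and 1 higher (8.35 and 10.0% of all tested ORFs). IDH2, a subunit of isocitrate dehydrogenase, was at 1919, 3046 and 2363 in vehicle and 1336, 1265 and 1014 in inducer (log2 change -1.0 ± 0.19 SE, limma adjusted p = 0.0135). FUM1 (fumarase) was at 1249, 1802 and 1303 and at 879, 851 and 679 (-0.84 ± 0.16 SE, limma adjusted p = 0.0154). ACO1 (aconitase) was at 1970, 2868 and 2344 and at 1413, 1250 and 1176 (-0.89 ± 0.18 SE, limma adjusted p = 0.0169). The inducer values of these enzymes lay below all vehicle values, and CIT1, IDH1, LSC1 and MDH1 were called lower as well. The gene called higher was LSC2, the beta subunit of succinyl-CoA ligase, with 3109, 2966 and 2849 in vehicle and 3804, 5721 and 6618 in inducer (0.82 ± 0.20 SE, limma adjusted p = 0.0321). Its partner LSC1 was at 2494, 2302 and 2069 and at 1994, 1115 and 1034 (-0.79 ± 0.18 SE, limma adjusted p = 0.0277), so the subunits of this enzyme were called in opposite directions, as ATP7 and ATP2 were within ATP synthase. LSC1 and LSC2 were named after their values were seen. Without the 6.5 h pair or the 7 h pair 0 of the 11 were called lower, with medians of -0.66 and -0.68.

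Carriers of the inner membrane that move ADP, ATP, phosphate and related substrates, with the porin, had 4 of 10 genes called lower and 1 higher. Among all tested ORFs 8.35% were called lower and 10.0% higher. PET9, the main ADP/ATP carrier, was at 1433, 2263 and 1275 in vehicle and 1099, 861 and 749 in inducer (log2 change -0.85 ± 0.20 SE, limma adjusted p = 0.0306). MIR1, the phosphate carrier, was at 1023, 1194 and 699 and at 722, 553 and 473 (-0.72 ± 0.17 SE, limma adjusted p = 0.0262). Both had the 6.5 h vehicle maximum seen in most of the 33 genes. DIC1, the dicarboxylate carrier, was called higher, with 397, 377 and 397 and then 578, 905 and 1233 (1.14 ± 0.21 SE, limma adjusted p = 0.0134). Without the 6.5 h pair or the 7 h pair 0 of the 10 were called.

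The Hap2, Hap3, Hap4 and Hap5 proteins form the activator known to switch on respiratory genes in yeast, and Hap1 is the haem-dependent activator of CYC1 and others. Of these 5 genes 3 were called lower (8.35% of all tested ORFs). HAP1 was at 88.5, 95.3 and 66.1 in vehicle and at 67.0, 42.5 and 43.7 in inducer (log2 change -0.71 ± 0.17 SE, limma adjusted p = 0.0296). HAP5 was at 81.4, 78.5 and 68.8 and at 63.6, 39.5 and 47.8 (-0.61 ± 0.16 SE, limma adjusted p = 0.0357). The inducer value of HAP1 at 6 h lay just above its vehicle value at 7 h, so its groups overlapped. HAP2 was at 130, 120 and 86.9 and at 80.9, 65.4 and 76.8 (-0.57 ± 0.16 SE, limma adjusted p = 0.0443). HAP4, the subunit that activates transcription, was at 685, 847 and 683 and at 617, 636 and 569 (-0.28 ± 0.14 SE, limma adjusted p = 0.197). For HAP2, HAP4 and HAP5 all inducer values lay below all vehicle values. HAP3 was at 932, 1143 and 798 and at 952, 922 and 851 (-0.06 ± 0.15 SE, limma adjusted p = 0.796). Without the 6.5 h pair, without the 7 h pair or without time in the model 0 of the 5 were called. HAP3 and HAP4 were named after their values were seen.

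Most genes that make or assemble the complexes were not called, as was the case among all tested ORFs (10.0% called higher and 8.35% lower). Of 40 assembly factors of complexes II to V, 1 was called higher and 2 lower, with a median of -0.16. COX18 was at 85.6, 84.8 and 85.1 in vehicle and at 115, 150 and 165 in inducer (log2 change 0.73 ± 0.14 SE, limma adjusted p = 0.0155). COX19 was lower at -0.89 ± 0.25 SE (limma adjusted p = 0.0484). COX23 was lower at -0.67 ± 0.18 SE (limma adjusted p = 0.0421). Of 19 genes for mitochondrial gene expression 2 were called higher (CBS1 and MTF1) and 1 lower (NCA3, at -1.30 ± 0.24 SE, limma adjusted p = 0.0134), with a median of -0.13. Of 33 genes of the large mitochondrial ribosomal subunit 1 was higher (MRPL50) and 1 lower (MRPL4), with a median of -0.11. Of 28 genes for mitochondrial import 0 were called. An unadjusted p under 0.05 was found for 3 (TOM40, TIM44 and HSP60), against 2128 of the 6025 tested ORFs. The median of this list was -0.13. These medians lie within 0.1 of the median of all tested ORFs. Without the 6.5 h pair or the 7 h pair 0 genes of these 4 lists were called.

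**Figure D5:**
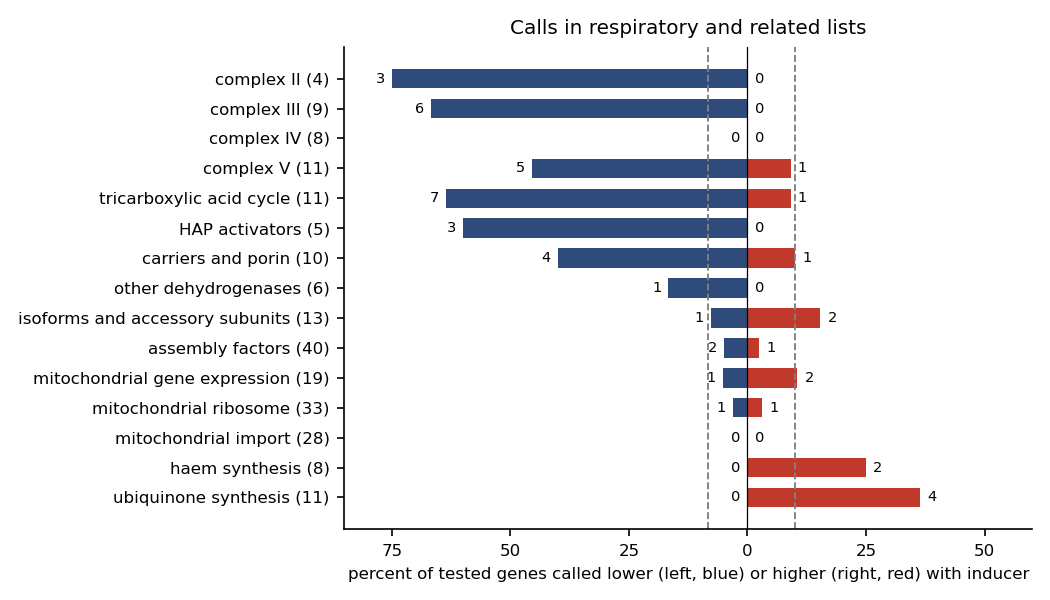
Percent of the tested genes of each list that limma called lower (blue, to the left) or higher (red, to the right) with inducer, with the number of genes tested after each name and the number called beside each bar; the dashed lines mark 8.35% lower and 10.0% higher among all tested ORFs. Bars to the left are longest for complexes II and III, the tricarboxylic acid cycle and the HAP activators, followed by complex V, and bars to the right are longest for ubiquinone and haem synthesis.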

How the data were processed

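Poly(A)-selected RNA of 6 libraries was read as single ends with a directional kit, per the labels' protocols. The submitters' processing notes name Bowtie2, TopHat and SAMtools. Versions, genome build, annotation and any use of strand were not given in the sources used here. The authors deposited 1 table of RPKM-type values without counts, a unit inferred from its numbers. With 60 bp taken off the coding length, 72.6 to 79.6% of values under 40 reads were whole to within 0.02 (10.0 to 12.3% without that offset). These reads served to describe depth, without a count test. Counting error was not modelled by depth and enters the p-values only through the spread between libraries. Columns were matched to samples by name, leaving 0 unmapped. The reference gene table of S288C (R64) held 5994 of the ORF identifiers, lacked 685 and supplied 762 symbols. No coordinates are given because the authors' build is not named.

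Values were taken as log2(value + 1), which understates the change of low genes, and 6025 ORFs with a mean of at least 5 were tested with limma-trend (limma 3.58.1, R 4.3.3), Benjamini-Hochberg adjusted over all of them at 0.05. The treatment fit held the 3 times as a factor (2 residual degrees of freedom plus the prior). The fit over time held treatment and linear hours, and a further fit added their product. The planned test for normalised values was used, in place of that planned for counts. Libraries were paired by the hour of harvest given in the labels; across ORFs, deviations from the treatment mean correlated at 0.32, 0.00 and 0.11 within pairs. Procedures were tested on simulated data.

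Named were all 33 members; up to 3 genes with the smallest p from every other list; HAC1; CYC7, COX5B and the 7 mitochondrially encoded subunits; and neighbours of a member called against the direction of most. Others were chosen after their values were seen. Members and lists were chosen with earlier results of these data known. Planned descriptions of promoters and proteins were not made. The alternatives were pseudocounts of 0.1 and 5, no filter, a filter at 20, median-of-ratios scaling, HAC1 left out of the totals, no variance trend, other codings of time, and each time or library left out.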

Additional observations from a re-analysis of the deposited data

How the results depend on the processing

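Of the 33 changes between inducer and vehicle, all kept their sign under every alternative run except that of ATP4, which was 0.02 with median-of-ratios scaling (-0.04 as deposited); the cause was not tested. With a time-matched pair left out, 0 to 20 genes were called lower and 0 to 1 higher. The 0 in both directions came without the 6.5 h or the 7 h pair, which leave 4 libraries. Those fits called 0.365 and 0.149% of all tested ORFs lower. The paired fit called 15 lower and 1 higher, and the fit without time in the model 5 lower and 1 higher. All 5 were among the 15. Among all tested ORFs 8.35 and 2.41% were called lower in these fits. Median-of-ratios scaling gave 13 lower, HAC1 left out of the totals 14, no variance trend 10 and hours as a linear term 16, with 14 shared. The shares of all ORFs called lower were 6.62, 7.35, 4.32 and 10.4% in that order. Without the variance trend the calls of SDH3, SDH4, QCR10, ATP5 and ATP16 were lost, at limma adjusted p of 0.0553 to 0.0588. Pseudocounts and filters left the 15 calls as they were. No change over time was called under any alternative. The interaction could not be fitted without a pair because no residual degrees of freedom remained. Each gene had 221 or more recovered reads in each library. With 1 library per treatment and time, the spread at a given time is not known.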

Other observations

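Of 8 haem synthesis genes, which make a cofactor of the chain, 2 were called higher and 0 lower (10.0 and 8.35% of all tested ORFs). Of the 8 changes 5 lay below 0, against 3580 of the 6025 over all tested ORFs. HEM15 (ferrochelatase, the last step of haem synthesis) was at 384, 336 and 309 in vehicle and at 993, 2682 and 3228 in inducer (log2 change 2.58 ± 0.35 SE, limma adjusted p = 0.00478). HEM12 (uroporphyrinogen decarboxylase) was at 200, 191 and 180 and at 371, 524 and 556 (1.32 ± 0.17 SE, limma adjusted p = 0.00399). HEM2, the third gene by p, was at 339, 415 and 294 and at 287, 232 and 233 (-0.47 ± 0.16 SE, limma adjusted p = 0.0762). HEM15 and HEM12 were thus apart from the median of their list, -0.07. Without the 7 h pair the adjusted p was 0.065 for HEM15 and 0.0584 for HEM12.

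Of 11 ubiquinone synthesis genes 4 were called higher and 0 lower (10.0 and 8.35% of all tested ORFs). COQ6, a monooxygenase of the ring, was at 129, 112 and 116 in vehicle and at 446, 931 and 949 in inducer (log2 change 2.61 ± 0.25 SE, 6.12-fold higher, limma adjusted p = 0.00137). COQ1, which makes the polyprenyl tail, was at 71.0, 78.1 and 62.8 and at 101, 145 and 163 (0.91 ± 0.17 SE, limma adjusted p = 0.0148). COQ8 was at 54.1, 49.9 and 49.0 and at 71.7, 71.0 and 93.5 (0.61 ± 0.15 SE, limma adjusted p = 0.0311), and COQ7 had a change of 0.62 ± 0.16 SE (limma adjusted p = 0.0385). The inducer values of all 4 genes lay above all vehicle values. Without the 6.5 h pair or the 7 h pair only COQ6 was called, at 2.40 (limma adjusted p = 0.00514) and 2.41 (limma adjusted p = 0.0467).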
